A study of Mus musculus with 2 samples.

Results

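The Mir30 family was followed in the stomach of the mouse embryo. It comprises the 6 genes Mir30a, Mir30b, Mir30c-1, Mir30c-2, Mir30d and Mir30e, chosen by name, and all 6 were among the 1973 genes counted. Small RNA below the size of 30 nt was sequenced from the stomachs of B6NCrl mouse embryos at 14.5 days of development, with no treatment or genetic change named. There was 1 group with 2 biological replicates, each described as the stomach of a pup and collected on its own day, so replicate and day cannot be told apart. Sex is labelled as pooled, with males and females, which leaves the number of embryos per sample unclear, and p-values weigh the difference between these libraries against counting error only.

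MicroRNAs are short RNAs cut from a hairpin precursor. An Argonaute protein carries the mature strand to messenger RNAs that pair with its seed, bases 2 to 8 from the 5′ end, and their translation and stability fall. The Mir30 genes share a seed and so a large part of their predicted targets. In epithelial cells the family is known to repress Snai1, a driver of the change from epithelial to mesenchymal cells.

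The mature sequences are shown because they define the family and bear on which reads a counter can assign to a gene. RefSeq sequences on GRCm38.p6 matched 4 of the 6 members, Mir30a, Mir30c-1, Mir30c-2 and Mir30e. Mir30b and Mir30d are named only. The 5′ arms follow, with the seed in capitals.
miR-30a-5p: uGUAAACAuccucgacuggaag
miR-30e-5p: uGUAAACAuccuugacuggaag
miR-30c-5p: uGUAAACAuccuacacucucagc

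All 3 sequences carried the seed GUAAACA and were identical over their first 12 bases. Positions were counted from 1 at the 5′ end. The sequences miR-30a-5p and miR-30e-5p, each of 22 nt, differed at 1 position, C13U. From miR-30a-5p, miR-30c-5p differed at 5 of the 22 positions compared, which were C13A, G14C, G18C, G19U and A20C. Mir30c-1 and Mir30c-2 both encode miR-30c-5p, of 23 nt, without a difference.

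The 3′ arms, which come from the other side of each hairpin and are shown because they split the family, had other seeds.
miR-30a-3p: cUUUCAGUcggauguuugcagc
miR-30e-3p: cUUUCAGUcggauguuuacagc
miR-30c-1-3p: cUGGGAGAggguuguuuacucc
miR-30c-2-3p: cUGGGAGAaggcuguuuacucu

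Mir30a and Mir30e shared the 3′ seed UUUCAGU and differed there at 1 position, G18A. Both Mir30c genes had the seed UGGGAGA and differed at 3 positions, G9A, U12C and C22U. The longest stretch common to the Mir30c hairpins was 28 nt and covered the whole of miR-30c-5p. The Mir30a and Mir30e hairpins had 18 nt in common at most, shorter than their mature forms, and each Mir30c hairpin had 12 nt in common with either of them.

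Each deposited table gives whole-number read counts per hairpin gene, so the arms are not separated. The libraries held 5004548 (replicate 1) and 4679914 (replicate 2) counts over all genes. Levels are given in CPM, counts per 1000000 of these gene counts, and ± is the SD over 2 libraries. They are shares of the counted miRNA, not amounts per cell, and in whole tissue fewer cells of a type and less RNA per cell cannot be told apart. A mature miRNA has nearly the same length in the 4 members with a sequence (22 or 23 nt), and levels were not divided by length. The tissue was checked by other miRNAs. Smooth muscle markers (Mir143 and Mir145a) summed to between 146512 and 164146 CPM over the libraries, most of it Mir143 (143726 to 161255 CPM), all 5 epithelial Mir200 genes to between 41439 and 41482 CPM, and endothelial Mir126a to between 19164 and 21613 CPM. Mir375, of gastric and endocrine epithelium, had 4678 to 5552 CPM. A list of 5 miRNAs known from kidney (Mir192, Mir194-1, Mir194-2, Mir204 and Mir10a) summed to between 45831 and 46157 CPM. Of this sum Mir10a alone held 44465 and 44992 CPM. These miRNAs were not shown to be confined to kidney, so their sum is no measure of kidney cells. Erythroid markers (3 of 3 detected) reached 151 to 218 CPM and Mir122 of liver 56.7 to 65.8 CPM. Of 8 striated muscle markers 4 were detected, with 102 to 117 CPM in all, most of it Mir208b (86.3 to 95.1 CPM). Mir133a-1 and Mir133a-2 had 0 counts. Reads that map to several places enter no gene, so low or 0 counts of a marker with a copy elsewhere do not show absence. Which markers have such a copy was not looked at one by one. The part of these cell types in the Mir30 levels was not tested.

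Mir30e was the leading member. Mir30e (ENSMUSG00000065409.1) lies on chromosome 4 at 120772606 to 120772697, minus strand, in an intron of Nfyc, which encodes a subunit of a CCAAT-binding transcription factor. It had 80494 counts in replicate 1 and 94227 in replicate 2. These counts were 16084 and 20134 CPM, with a mean of 18109 ± 2864 CPM (SD, n = 2). Mir30e alone made up 65.0% ± 0.87 of the family's counted reads and ranked 14th of all genes by mean CPM.

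Mir30a and Mir30d followed at a similar level. Mir30a (ENSMUSG00000065405.2) lies on chromosome 1 at 23272269 to 23272339, plus strand, and overlaps no other gene of GENCODE M21. It had 23462 and 26752 counts in replicates 1 and 2, or 4688 and 5716 CPM, with a mean of 5202 ± 727 CPM (SD, n = 2). Mir30d (ENSMUSG00000065437.1) lies on chromosome 15 at 68341208 to 68341289, minus strand, in an exon of the long noncoding RNA Gm20732. It had 20116 and 21740 counts, which were 4019.5 and 4645 CPM, with a mean of 4332 ± 443 CPM. Mir30a ranked 38th and Mir30d 48th.

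The other 3 genes were far lower. Mir30b (ENSMUSG00000065476.2), on chromosome 15 at 68337415 to 68337510, minus strand, overlaps an exon of the processed transcript Gm26621. It had 599 and 522 counts, or 119.7 and 112 CPM, with a mean of 116 ± 5.76 CPM. Mir30c-1 (ENSMUSG00000065490.1), on chromosome 4 at 120769534 to 120769622, minus strand, lies in an intron of Nfyc like Mir30e. It had 269 and 293 counts, or 53.8 and 62.6 CPM, with a mean of 58.2 ± 6.26 CPM. Mir30c-2 (ENSMUSG00000065567.1), on chromosome 1 at 23291701 to 23291784, plus strand, lies in an exon of the long noncoding RNA Gm27028. It had 118 and 104 counts, or 23.6 and 22.2 CPM, with a mean of 22.9 ± 0.96 CPM. These 3 genes ranked 186th, 226th and 261st and together held 0.714% of the family's counts.

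**Figure D1:**
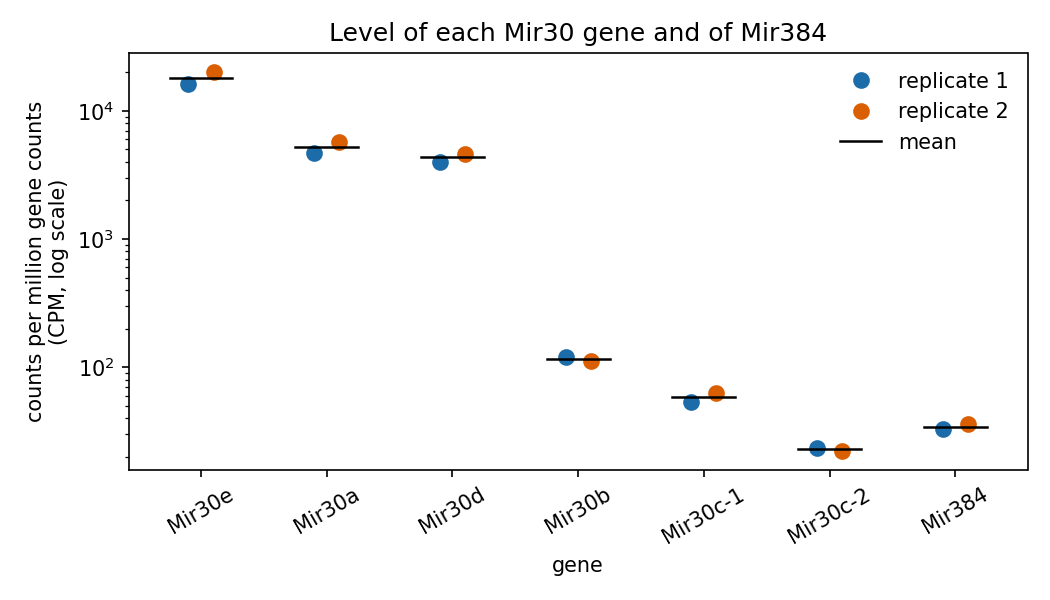
The vertical axis gives CPM on a log scale and the horizontal axis the 6 Mir30 genes and Mir384; points are the 2 libraries and lines their mean. Mir30e, Mir30a and Mir30d stand at 4019.5 CPM or more in both libraries, and Mir30b, Mir30c-1 and Mir30c-2 at 119.7 CPM or less.

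All 6 members were detected, which required at least 10 counts in each library. Summed over the family, replicate 1 held 24989 CPM and replicate 2 held 30692 CPM, a mean of 27841 ± 4033 CPM, or 2.78% of all gene counts. The order of levels was Mir30e, Mir30a, Mir30d, Mir30b, Mir30c-1 and Mir30c-2, and it was the same in each library. No neighbours in this order had ranges that overlapped, although Mir30a and Mir30d came close, since the lower Mir30a value was 4688 CPM and the higher Mir30d value 4645 CPM. Within a library, Mir30a exceeded Mir30d 1.17-fold in replicate 1 and 1.23-fold in replicate 2. Mir30e exceeded Mir30a 3.43-fold and 3.52-fold. The gap between Mir30d and Mir30b was the widest step in the order, at 33.6-fold and 41.6-fold. Mir30b exceeded Mir30c-1 2.23-fold and 1.78-fold, and Mir30c-1 exceeded Mir30c-2 2.28-fold and 2.82-fold. With 2 libraries an order carries no test across samples.

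**Figure D2:**
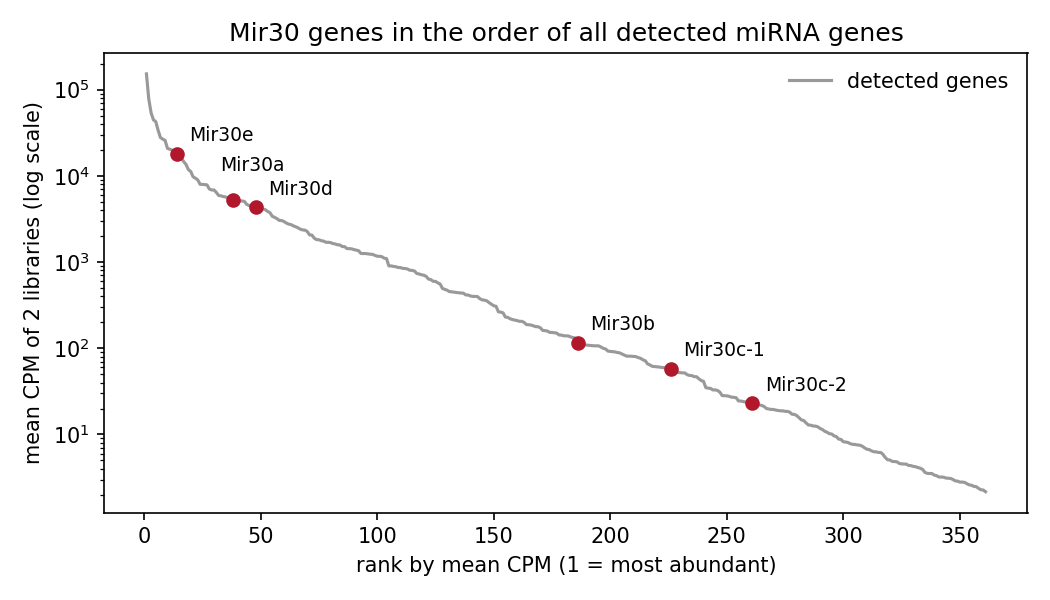
Mean CPM over 2 libraries (log scale) is plotted against the rank of the 361 detected miRNA genes, with the Mir30 genes as red points on the grey curve. Mir30e, Mir30a and Mir30d hold ranks 14, 38 and 48, and Mir30b, Mir30c-1 and Mir30c-2 hold ranks 186, 226 and 261.

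The family lies in 3 pairs of neighbours on 1 strand each. In every pair the upstream gene in the direction of transcription had the higher counts. In the pairs on chromosomes 4 and 1 the downstream gene is a Mir30c gene. The counts of those genes leave out reads of miR-30c-5p that fit both, so their part in this pattern is uncertain. On chromosome 4, Mir30e lies 2983 nt upstream of Mir30c-1. Mir30d lies 3697 nt upstream of Mir30b on chromosome 15, and Mir30a lies 19361 nt upstream of Mir30c-2 on chromosome 1. The chromosome 4 pair held 65.2% of the family's counts, the chromosome 1 pair 18.8% and the chromosome 15 pair 16.0%.

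**Figure D3:**
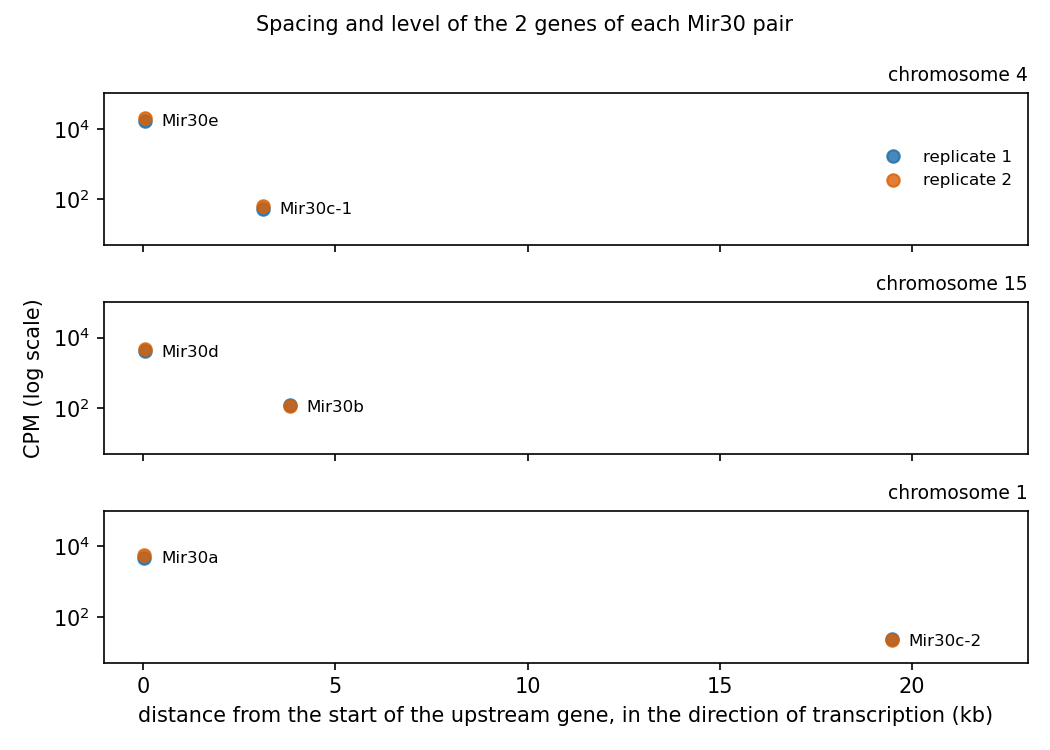
For each pair, CPM on a log scale is plotted against the distance in kb from the start of the upstream gene, in the direction of transcription; points are the 2 libraries. The upstream gene is the higher of the 2 in all 3 panels, and the pair on chromosome 1 is the most widely spaced. The counts of the Mir30c genes leave out reads that fit both of them.

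Within each pair the ratio of the genes was large in both libraries. Mir30e over Mir30c-1 stood at 299-fold in replicate 1 and 322-fold in replicate 2, a log2 ratio of 8.28 ± 0.07 (SD, n = 2). Mir30a over Mir30c-2 stood at 199-fold and 257-fold, a log2 ratio of 7.82 ± 0.26. For Mir30d over Mir30b the values were 33.6-fold and 41.6-fold, a log2 ratio of 5.22 ± 0.22. The pair on chromosome 15 thus had the lowest counted ratio in both libraries, and its values did not overlap those of the other pairs. Those pairs hold the Mir30c genes, whose counts leave out reads of miR-30c-5p that fit both. The order of the pairs is therefore uncertain.

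Whether the ratio within a pair differed between the libraries was asked with Fisher's exact test on the counts, two-sided, adjusted over the 3 pairs. The ratio of Mir30d over Mir30b was higher in replicate 2 by 0.31 on the log2 scale (adjusted p = 0.0012). For Mir30a over Mir30c-2 it was higher by 0.37 without passing the test (adjusted p = 0.089), with only 118 and 104 counts of Mir30c-2. For Mir30e over Mir30c-1 the difference was 0.10 (adjusted p = 0.40). The test covers counting error and compares these libraries, not conditions. How often other pairs of genes would pass was not computed. Of single detected genes, 42.1% differed between the libraries in the binomial test given below. The call is therefore not read as a trait of this pair.

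**Figure D4:**
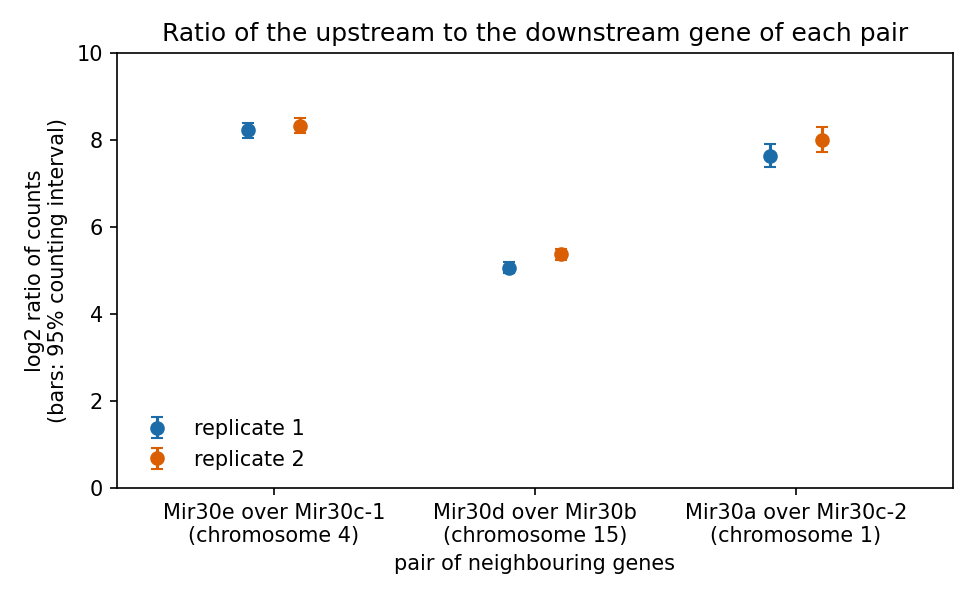
The log2 ratio of the upstream over the downstream gene is shown for each pair and library, with bars for the 95% counting interval (Clopper-Pearson). The pair on chromosome 15 lies at 5.07 and 5.38, below the other pairs, which lie between 7.64 and 8.33. The counts of the Mir30c genes in those pairs leave out reads that fit both of them.

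The low members include the genes whose mature sequence has a copy elsewhere. Reads that map to several places are in a line that names no gene, with 2437052 reads in replicate 1 and 2263676 in replicate 2. That is 19.5 and 15.8 times the counts of the whole Mir30 family. A read of miR-30c-5p fits Mir30c-1 and Mir30c-2 alike, so the counts of these genes leave out an amount that the tables do not give, and their levels and ratios to Mir30e and Mir30a are uncertain. The 3′ arms of both genes are held by 1 gene each.

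Genes with and without such a copy were compared across all miRNA genes with a RefSeq entry, 916 of the 1973 counted and 325 of the 361 detected. Of the genes with a copy 52.9% were detected, and of those without 33.7%. Genes with a mature sequence that another gene also holds had a median of 55.1 CPM (46 of 87 detected, median over the detected), and 4 of them reached 1000 CPM. Genes with no such copy had a median of 178 CPM (279 of 829 detected), and 88 reached 1000 CPM. Mir30c-1 at 58.2 CPM lay near the median of the copied genes and Mir30c-2 at 22.9 CPM above their lower quartile of 17.5 CPM, which for the genes with no copy was 19.6 CPM. Levels like those of the Mir30c genes thus occurred in both classes. The part of uncounted reads in the low level of the Mir30c genes was not tested.

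No member had a count on the strand opposite to its annotation, in either library. A count of 0 allows up to 3 counts, or 0.599 CPM in replicate 1 and 0.641 CPM in replicate 2, by counting error alone. This bears on Mir30e, since Mir30f is annotated at the same position on the plus strand and is not among the genes counted. Its mature form is shown because it begins with the letters of the family's seed, shifted by 1 base.
miR-30f: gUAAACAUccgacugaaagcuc

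The seed of miR-30f is UAAACAU and not GUAAACA. Beside the members, the sequence table held 1 more counted gene with the family's seed, Mir384, a miRNA known from brain, on chromosome X at 105344282 to 105344369. The seed was carried by 4 of 1679 mature sequences of the table, or 0.238%.
miR-384-5p: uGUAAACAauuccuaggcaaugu

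From miR-30a-5p this sequence was identical over the first 8 bases and differed at 10 of the 22 positions compared. Mir384 had 164 counts in replicate 1 and 169 in replicate 2, which were 32.8 and 36.1 CPM, with a mean of 34.4 ± 2.36 CPM (SD, n = 2). It stood below Mir30c-1 and above Mir30c-2 in both libraries. Mir30e, Mir30a and Mir30d thus supplied the bulk of the counted reads from hairpins of the family and Mir384.

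The libraries were then compared member by member, by the exact conditional binomial test, two-sided, and p-values were adjusted by Benjamini-Hochberg across all 361 detected genes. The 3 abundant members were higher in replicate 2 at an adjusted p under 0.05, and the 3 low members did not pass. Across all detected genes 42.1% passed, 24.7% with the higher value in replicate 2 and 17.5% with the higher value in replicate 1. Such a call is common among abundant genes, where counting error is small: of the 104 genes of 1000 CPM or more, 77.9% passed and 44.2% were higher in replicate 2. Of the 103 genes of 20 to 200 CPM, the range of the low members, 32.0% passed and 25.2% were higher in replicate 2. These abundance ranges were set after the values were seen.

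Mir30e was 1.25-fold higher in replicate 2, a log2 ratio of 0.32 (95% counting interval 0.31 to 0.34), and its binomial p was too small for the computation to hold. Mir30a was 1.22-fold higher, with a log2 ratio of 0.29 (0.26 to 0.31) and an adjusted binomial p of 9.61e-108. Mir30d was 1.16-fold higher, with a log2 ratio of 0.21 (0.18 to 0.24) and an adjusted binomial p of 2.35e-48. None of the members reached a log2 ratio of 1, and 1.11% of detected genes passed both that limit and the adjusted p. The SD of the log2 ratio over the 196 genes of 100 CPM or more was 0.20, with a range of -0.39 to 0.74. Of those 196 genes, 20 had a ratio at or above that of Mir30e, itself included.

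For the low members the intervals were wide. Mir30c-1 had a log2 ratio of 0.22 (95% counting interval -0.02 to 0.46, adjusted binomial p = 0.15). Mir30b had -0.10 (-0.27 to 0.07, adjusted binomial p = 0.38) and Mir30c-2 had -0.09 (-0.48 to 0.31, adjusted binomial p = 0.80). For Mir30c-1 the interval included 0 as well as the values of the 3 abundant members. The median over the 6 members was 0.21, beside 0.04 over all detected genes.

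**Figure D5:**
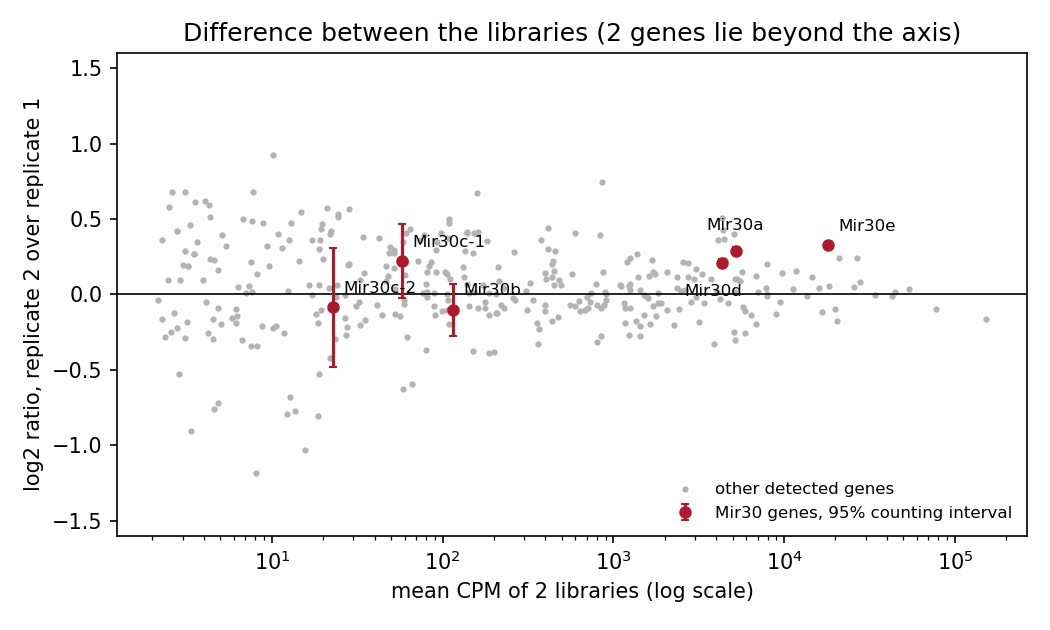
The log2 ratio of replicate 2 over replicate 1 is plotted against mean CPM (log scale) for all detected genes in grey, with the Mir30 genes in red and their 95% counting intervals; 2 genes lie beyond the axis. Mir30e, Mir30a and Mir30d lie at 0.32, 0.29 and 0.21, and the intervals of Mir30b, Mir30c-1 and Mir30c-2 cross 0.

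The split of calls over all genes depended on the scaling, and the members' did not. With gene counts as the total, 89 genes were higher in replicate 2 and 63 in replicate 1. The split was 74 against 94 by TMM factors of edgeR and 58 against 115 by size factors of DESeq2. Leaving the 5 most abundant genes out of the total gave 74 against 92. Under these scalings Mir30e, Mir30a and Mir30d stayed higher in replicate 2. Their lowest log2 ratios were 0.23, 0.20 and 0.12, all from the size factors. The other 3 members did not pass, but Mir30b came close by the size factors (log2 ratio -0.19, adjusted binomial p = 0.056).

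The genes most like each member were sought by the Euclidean distance of log2(CPM + 1) over the 2 libraries. Nearest to Mir30e were Mir99b (distance 0.19, 17887 and 18619 CPM in replicates 1 and 2), Mir17 (0.30, 19135 and 22626 CPM) and Mir23a (0.31, 15804 and 16308 CPM). Nearest to Mir30a was Mir541 (0.10, 4364 and 5762 CPM) and to Mir30d Mir351 (0.09, 4176 and 4890.5 CPM). For Mir30b it was Mir181a-2 (0.14, 116 and 101 CPM), for Mir30c-1 Mir668 (0.09, 51.4 and 65.2 CPM) and for Mir30c-2 Mir6236 (0.08, 23.8 and 23.5 CPM). Likeness over 2 libraries is mostly likeness of level.

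The family was set beside 3 others that also have several genes, Mir26, Mir29 and Mir181. Mir26, known for repressing Ezh2, totalled 33949 ± 100 CPM (SD, n = 2), of which 99.8% came from Mir26b. Mir181, known from lymphoid and vascular cells, totalled 11564 ± 1243 CPM over 6 genes, with 45.8% from Mir181c. Mir29, known for repressing collagen genes, totalled 103 ± 3.46 CPM. The log2 ratio of the Mir30 total was -0.29 ± 0.21 over Mir26, 1.26 ± 0.05 over Mir181 and 8.08 ± 0.26 over Mir29. In replicate 1 the ratio over Mir26 was -0.45 and in replicate 2 -0.14, so the Mir30 total was below the Mir26 total in both. No test was run on these ratios: they are formed within each library, and an exact test that flips the sign of 2 such values cannot reach a p of 0.05. The totals leave out the reads of copied mature sequences.

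Levels were also set beside copy number of the 5′ mature sequence in the 3 families. Mir26a-1 and Mir26a-2, which share their 5′ mature sequence, had 18.5 ± 1.75 and 52.1 ± 7.00 CPM, beside 33878 ± 106 CPM for Mir26b, whose sequence has no copy in the table. Mir181c (5297 ± 259 CPM) and Mir181d (4126 ± 719 CPM), without such a copy, exceeded the 4 genes with one, of which Mir181a-1 was the highest at 1156 ± 34.2 CPM. All 4 Mir29 genes were low, from 0.53 CPM for Mir29b-2 to 59.8 CPM for Mir29c, and none had a copy of its 5′ mature sequence. Copies of the 3′ arms were not looked at in this comparison, so reads lost from those arms are not covered. The Mir29 genes are therefore not shown to be low without a copy. In the Mir30 family Mir30e and Mir30a, without a copy, stood above Mir30c-1 and Mir30c-2, and the copy status of Mir30b and Mir30d was not analysed here.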

How the data were processed

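MicroRNA sequencing of 2 libraries of embryonic mouse stomach was used. The deposited values are raw counts per gene, and per the file headers of the accompanying text they were made from an alignment on mm10 with GENCODE M4. No aligner or counter is named (not given in the sources used here). Of 3 count columns, the column of both strands was used. In every gene it is the sum of the other two. Lines that name no gene were left out of totals: unmapped reads, at 13.0% ± 0.72 (SD, n = 2) of the reads, reads of several places (27.6% ± 0.28) and reads outside genes (2.41% ± 0.12). With 95% exact binomial (Clopper-Pearson) intervals, error of counting is covered and nothing else, since reads carry no molecular identifiers.

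Symbols and coordinates came from GENCODE M21 on the same assembly, by Ensembl identifier (1894 of 1973 matched), and sequences from RefSeq on GRCm38.p6, by symbol. Genes with 10 or more counts in both libraries (361) were tested by an exact binomial test with SciPy 1.17.1. The code was tried on simulated data that held counting error only. That trial does not show how the test behaves on the wider spread of these libraries. With 1 group, a quasi-likelihood test has no contrast. Sampling noise alone did not account for the differences between the libraries (chi-square 75.8 per degree of freedom). Scaling factors came from edgeR 4.0.16 and DESeq2 1.42.0.

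The members and lists were chosen with earlier results of these data known. Named genes are the members, counted genes with the seed of miR-30a-5p, the 3 genes nearest to the most abundant member, the nearest to each other member and miRNA genes within 10 kb on the same strand. Markers and comparison families are named where used. Alternatives were scaling, strand column, count minimum, total used, summed Mir30c genes, length, copied genes and leaving out each replicate.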

Additional observations from a re-analysis of the deposited data

Results flagged for a closer look

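Reads that map to several places belong to no gene and enter no level above. They made up 27.8% of reads in replicate 1 and 27.4% in replicate 2. How many of them are miR-30c-5p is not given by the tables.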

How the results depend on the processing

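Of 94 recomputed values, 85 were labelled the same, by direction, side of the threshold or replicate SD, as applied to each kind of value. Part of these labels is fixed by construction and tests nothing. With 1 replicate left out, a level or a ratio between genes is the other library's value, always within the replicate SD. Ratios within pairs cannot change in the own-strand column, since no member had counts on the opposite strand. The count minimum changes the adjusted p of a gene and not its ratio. The number of members called between the libraries was 3 in all 7 alternatives. With Mir30c-1 and Mir30c-2 summed, the log2 ratio of Mir30c-2 turned from -0.09 to 0.13 (adjusted binomial p = 0.32), since the sum is mostly Mir30c-1. With all mapped reads as the total, the family stood at 18228 CPM, and the 6 members fell in nearly the same proportion, because that total is larger by construction. With genes of 1 mature copy alone, Mir30a and Mir30e are left against Mir26b. The log2 ratio of the Mir30 over the Mir26 total was then -0.55, beside -0.29 with all genes. This set also drops Mir30d (mean 4332 CPM) and Mir30b (116 CPM), which have no sequence entry. The copied Mir30c genes it drops had 58.2 and 22.9 CPM, so the shift is not one of copied genes alone. Leaving out each replicate gave totals of 24989 to 30692 CPM and kept all 5 steps of the order, as did division by gene length. No paired analysis between groups was possible because there is 1 group, and ratios between genes were formed within each library. Depth limits Mir30b, Mir30c-1 and Mir30c-2 most among the members. Reads that fit both Mir30c genes stay uncounted at any depth.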
